A study of Danio rerio with 5 samples.

Results

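Among single cells sorted from runx1+23:mCherry zebrafish embryos, 216 wells carried transcripts of several skeletal muscle genes. A well was selected if it held at least 1000 transcripts, if globin made up under 20% of them, and if at least 4 of 8 muscle genes were detected (pvalb1, pvalb2, pvalb4, myl10, myhz1.1, myhz1.3, mybphb and TNNC2). The rule took 216 of the 933 wells with at least 1000 transcripts, here called kept wells (23.2%), out of 1920 wells on 5 plates. Of the selected wells, 137 came from irf8 MO embryos and 79 from std MO embryos. By plate, they numbered 45, 26, 61, 53 and 31.

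The embryos were 3 dpf, carried the runx1+23:mCherry transgene and had been injected with the irf8 MO or the std MO, the control morpholino. The runx1+23 enhancer drives mCherry in hematopoietic stem and progenitor cells (HSPCs), and single live mCherry+ cells were sorted into 384-well plates, the sample being labelled HSPCs. SORT-seq counts the transcripts of each well by molecular tags (UMIs). Every plate held std MO cells in wells 1 to 188 and irf8 MO cells in wells 189 to 384, so position on the plate and morpholino cannot be told apart. The plate was the replicate (n = 5), and nothing in the labels says whether the plates came from separate clutches, so p-values measure the spread between plates.

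Skeletal muscle fibres contract when calcium released from the sarcoplasmic reticulum binds troponin on the thin filament and lets myosin heads pull on actin. Fast fibres, which make up most of the trunk muscle of the zebrafish larva, use fast myosin and troponin isoforms and hold large amounts of parvalbumin, a soluble protein that takes up calcium as the fibre relaxes. Slow fibres form a superficial layer and use their own set of myosin light chains and troponins.

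For most of the selected wells the data went against the label of muscle cells. Over 5 hand-written lists of 116 measured muscle genes (thick filament, thin filament, calcium handling, energy supply, and Z disc with M band), muscle RNA made up a median of 1.59% of the transcripts of a selected well, with a range of 0.131% to 51.3%. The lists leave out MYL11, a fast myosin light chain, and ENSDARG00000037840, an abundant gene with no symbol, so each muscle share printed here leaves out their transcripts. The same lists made up a median of 0.655% in the 532 globin-rich wells (kept wells with globin at 20% or more) and 0.427% in the 185 other globin-poor wells. In the 813 wells with under 300 transcripts, which are close to empty, they made up 7.34%. Set against the pooled share of such near-empty wells of its own plate and morpholino, 34 of the 216 selected wells were higher and 182 were at or below it. This compares shares and not amounts. The 813 near-empty wells held 6600 muscle transcripts in all, and the 74 selected wells under 1% muscle RNA held 13371. Plate 4 well 214 (irf8 MO), at 8.65% of 39064 transcripts, counted among the 182, since the near-empty share there was 10.5%. Of those 34 wells, 14 held at least 10000 transcripts. Muscle shares were higher in shallower wells, so they moved with depth as well. In what follows the wells are therefore called selected wells, and muscle is named only where muscle genes lead.

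The selected wells held a median of 11537 transcripts (range 1010 to 287732) and 2896.5 detected genes. The median globin-rich well held 5060 transcripts and the median other globin-poor well 6205. Checked against the sample's label, HSPC genes made up a median of 0.228% of their transcripts, and the progenitor transcription factor MYB was detected in 16.7% of them and the receptor KIT in 14.4%, against 2.07% of globin-rich wells for each. The list's median was 0.222% in the other globin-poor wells, close to that of the selected wells. MYB and KIT are not set against those wells here, so they do not mark the selected wells apart from them. The HSPC list also holds hmga1a, a chromatin gene. In plate 4 well 214 (irf8 MO) hmga1a gave 37.2 transcripts, LMO2 2 and TAL1 1. In plate 3 well 195 (irf8 MO) hmga1a gave 31.1 and TAL1 16. The share of this list alone thus need not mark a progenitor. Values of the 8 muscle genes chose the wells, so the comparison with other wells is a description.

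**Figure D1:**
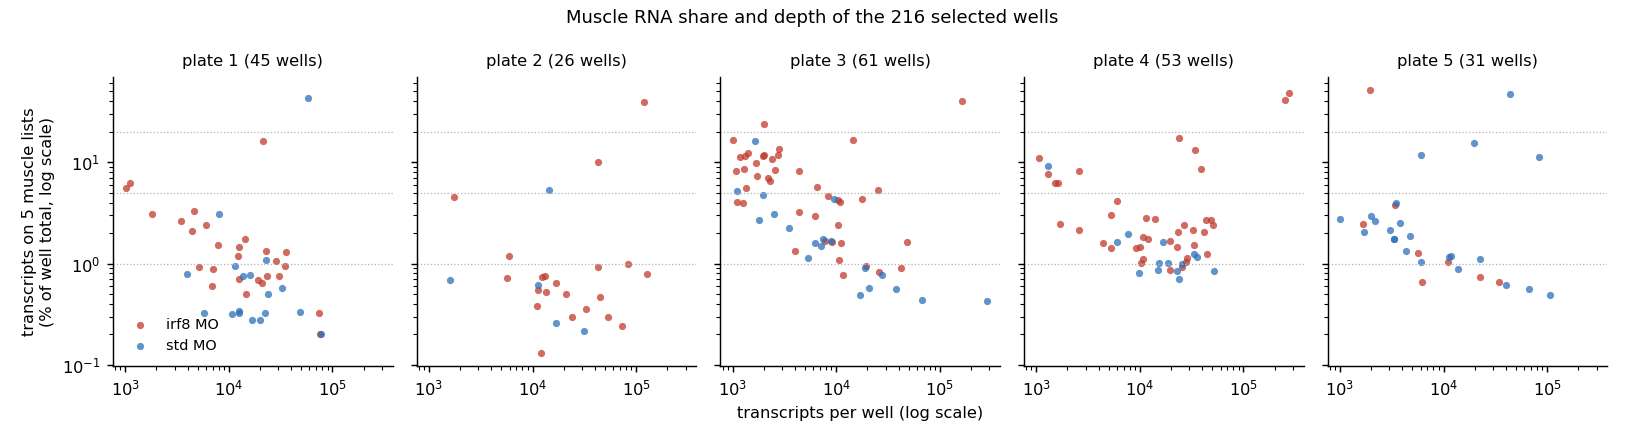
Percent of transcripts on the 5 muscle lists against transcripts per well (both log axes), a panel per plate and a point per selected well, irf8 MO in red and std MO in blue. The dotted lines mark 1, 5 and 20%, and 8 wells lie at 20% and over while among the rest the deeper wells tend to have the lower shares.

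The 8 genes of the rule differed in how often they were found. The parvalbumin genes pvalb2 and pvalb1 were detected in 100% and 99.5% of selected wells, against 83.8% and 68.2% of globin-rich wells. TNNC2, the calcium-binding troponin C of fast fibres, was detected in 100% of selected wells and 79.5% of globin-rich wells. These 3 genes were thus present in most wells of either kind.

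Those remaining genes were rarer. The fast myosin heavy chain gene myhz1.1 was detected in 58.3% of selected wells and 19.2% of globin-rich wells, and myl10, a myosin light chain gene, in 56.5% and 18.8%. For mybphb, a myosin-binding protein gene, the shares were 47.2% and 12.8%. For pvalb4 they were 38.9% and 10.2%, and for the myosin heavy chain gene myhz1.3 34.3% and 7.52%. Detections of these genes often rested on a single UMI, which was the whole signal in 48.8% of the wells with pvalb4, 48.6% of those with myhz1.3 and 48.0% of those with mybphb. Passing the rule turned on few molecules in many wells. Of the globin-rich wells, which the rule left out, 183 of 532 (34.4%) also had at least 4 of the genes.

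At the threshold the wells ran into each other. The 79 wells with exactly 4 genes had a median of 0.283% of transcripts on the rule genes and 1.19% on the muscle lists, and the 88 globin-poor wells with exactly 3 genes had 0.169% and 0.703%. The 23 wells with all 8 genes had 1.08% and 4.28%, at a median of 42844 transcripts. The number of rule genes detected rose with depth over wells (Spearman rho 0.361, n = 216), while the muscle share ran against it (rho -0.452, n = 216). Both values describe wells that share plates and are not a test. Of the selected wells, 138 had a rule-gene share at or under the 95th percentile of globin-rich wells.

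The muscle RNA was concentrated in very few wells. Split after its values were seen, the muscle share was under 1% in 74 wells, 1 to 5% in 94, 5 to 20% in 40, and 20% and over in 8. The 8 wells held 87.7% of all rule-gene transcripts in the selected wells, and 18.8% of all transcripts there. Among the wells under 1%, 50 had another cell type's list above the muscle lists, and their median depth was 20965 transcripts. The wells at 5 to 20% were mostly shallow, with a median of 2117 transcripts, and 10 of the 40 held at least 10000.

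**Figure D2:**
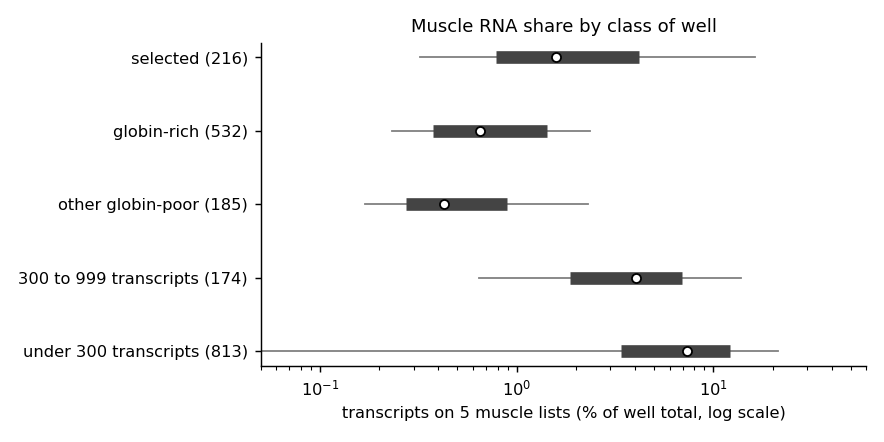
Percent of transcripts on the 5 muscle lists (log axis) by class of well, with the number of wells in brackets, the median as a circle, the quartiles as a bar and the 5th to 95th percentile as a line. Selected wells had a median of 1.59%, globin-rich wells 0.655% and wells with under 300 transcripts 7.34%, so the selected wells lie between them.

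In the 8 wells at 20% and over, the genes of the fast contractile apparatus stood out together. Of the 8, 6 wells, spread over plates 1 to 5, held over 10000 transcripts and 78 to 96 of the 116 muscle genes. Plate 4 well 231 (irf8 MO) held 276291 transcripts, of which 47.9% were muscle RNA. Plate 4 well 333 (irf8 MO) held 251061 at 40.9%, plate 3 well 321 (irf8 MO) 164253 at 40.6% and plate 2 well 294 (irf8 MO) 120358 at 39.2%. The std MO wells were plate 1 well 170, with 57638 transcripts at 42.6%, and plate 5 well 38, with 43456 at 46.9%. Deep fibre-like wells were thus found with both morpholinos. The other 2 wells, plate 3 well 238 and plate 5 well 321 (both irf8 MO), held 2026 and 1965 transcripts, at 24.1% and 51.3% muscle RNA. Both lay near the depth limit, and the most abundant listed muscle gene of plate 5 well 321 was tpma, a muscle tropomyosin, with 307 transcripts.

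Parvalbumin was among the most abundant RNAs of these wells, below ENSDARG00000037840 in all 8, which reached 25067 transcripts in plate 4 well 231 (irf8 MO) and 7183 in plate 5 well 38 (std MO). pvalb2 gave 24245, 19277, 11168 and 6643 transcripts in the irf8 MO wells plate 4 well 231, plate 4 well 333, plate 3 well 321 and plate 2 well 294, and 78.7 and 58.4 in the shallow irf8 MO wells. It gave 4444 and 2744 in the std MO wells plate 1 well 170 and plate 5 well 38. The deep irf8 MO wells held more of it than either std MO well, and more transcripts in all. Per 1000000 transcripts of the well (CPM), pvalb2 was at 87751, 76782, 67990 and 55192 in the deep irf8 MO wells and at 77098 and 63142 in the std MO wells, and the groups overlapped. In plate 4 well 231 pvalb2 used 4085 of the 4096 possible UMIs and ENSDARG00000037840 used 4087. Both transcript numbers there, and their order, thus rest on a large correction. Of all pvalb2 transcripts in the selected wells, 32.3% came from that well. The partner pvalb1 ran alongside, with a pvalb2 to pvalb1 ratio of 1.31 to 3.41 across the 8 wells.

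Other genes of the fast fibre are given in CPM, since the wells differ in depth. atp2a1, the calcium pump of the sarcoplasmic reticulum, was at 45057, 35598, 24668 and 35242 CPM in plate 4 well 231, plate 4 well 333, plate 3 well 321 and plate 2 well 294 (irf8 MO), against 30807 and 9838 in plate 1 well 170 and plate 5 well 38 (std MO). TNNC2 was at 37652, 27716, 29158 and 28168 CPM in the same irf8 MO wells, against 24511 and 47516 in the std MO wells. ACTA1 (ENSDARG00000055618), the skeletal actin, was at 18624, 17641, 19603 and 31229 CPM, against 22961 and 23265. For these 3 genes the wells of the 2 morpholinos overlapped, and plate 5 well 38 had the lowest atp2a1 and the highest TNNC2 of the 6. Energy supply was represented by ckma, a muscle creatine kinase, at 22562, 22361, 19311 and 20842 CPM in the irf8 MO wells and 21396 and 29600 in the std MO wells.

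The myosin heavy chain genes differed among these wells. myhz1.2 gave 2572 and 1639 transcripts in plate 4 wells 231 and 333 and 23.1 in plate 3 well 321, and none in plate 2 well 294 (all irf8 MO). It gave 5 and 1 in plate 1 well 170 and plate 5 well 38 (std MO). Among these 6 wells it was high only in the 2 of plate 4. myhz1.3 ran the other way, with 58.4 and 94.1 transcripts in those plate 4 wells, 391 and 379 in plate 3 well 321 and plate 2 well 294, and 321 and 136 in the std MO wells. myhz2 reached 743.5 transcripts in plate 2 well 294 and 7 to 9 in the other deep irf8 MO wells, against 21.1 and 32.1 in the std MO wells. These counts are not scaled for depth. The std MO wells were the shallowest of the 6, so the counts understate their levels against the irf8 MO wells. In CPM, myhz1.3 was at 211 and 375 in the plate 4 wells and 2381 in plate 3 well 321. It was at 3135 CPM in plate 5 well 38 (std MO), and plate 2 well 294 (irf8 MO), with 379 of 120358 transcripts, was close to that. Plate 1 well 170 (std MO), with 321 of 57638 transcripts, had the highest level of the 6. The myhz1 genes are near-identical copies, so reads could be split among them by the authors' counting, and the level of a single copy is uncertain.

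pvalb4 and myl10, the other genes of the rule, did not follow the fast genes. myl10 was at 7.01, 4, 1 and 3 transcripts in the 4 deep irf8 MO wells and at 0 in both deep std MO wells. Only 5.28% of all pvalb4 transcripts and 0.875% of all myl10 transcripts in the selected wells lay in the 8 wells, against 91.4% for pvalb2 and 90.3% for pvalb1. They were carried by other wells at 5 to 20%.

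**Figure D3:**
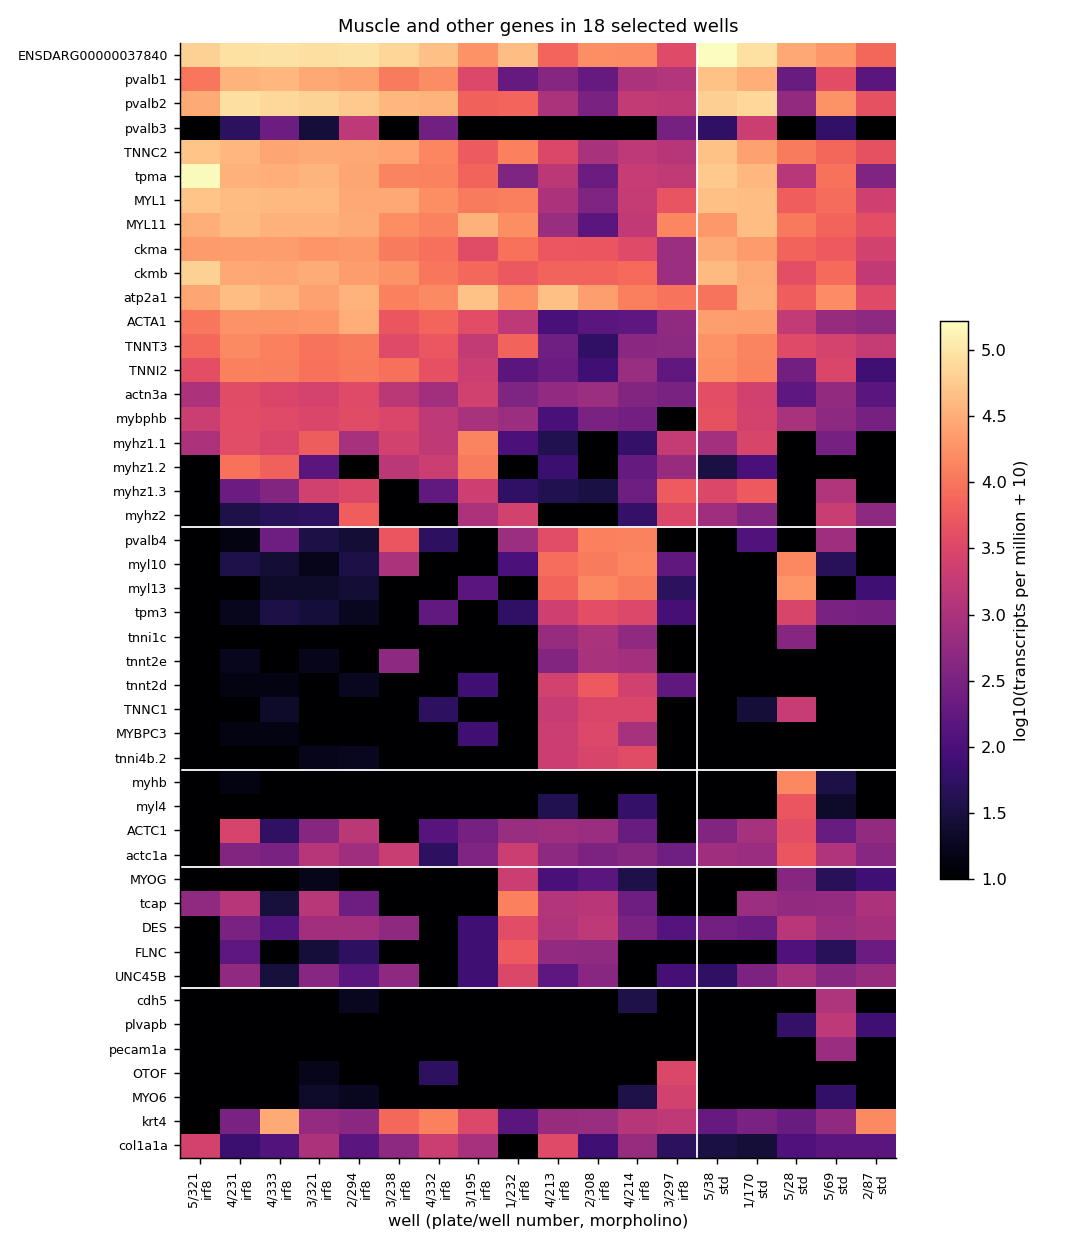
Levels of muscle genes in 18 selected wells, all 8 at 20% and over and the 10 at 5 to 20% with at least 10000 transcripts, irf8 MO before std MO, with the colour giving log10 of transcripts per 1000000 of the well plus 10. pvalb4, myl10 and myl13 are high in plate 2 well 308 and plate 4 wells 213 and 214, where fast genes such as ACTA1 (ENSDARG00000055618) are low.

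In 3 irf8 MO wells, slow-fibre genes were high against other wells, though calcium handling and energy supply genes took larger shares of their RNA. In plate 2 well 308, plate 4 well 214 and plate 4 well 213, genes of the slow list made up 2.22%, 1.66% and 1.12% of transcripts, against a median of 0.021% over selected wells and 0 in globin-rich wells. The myosin light chain gene myl13 gave 642, 438 and 232 transcripts there, and myl10 gave 481, 559 and 295. pvalb4 gave 547, 520 and 130, so this parvalbumin ran with the light chains in these wells. TNNC1, the troponin C of slow and cardiac muscle, gave 129, 119 and 63.5 transcripts, and tpm3, a slow tropomyosin, 174, 126 and 78.7. Some fast genes were low beside them, and atp2a1 was not: ACTA1 gave 6, 6 and 3 transcripts and pvalb2 13.0, 69.6 and 34.1, while atp2a1 reached 991, 472 and 1584. The cardiac list made up at most 0.0102% of transcripts in any of the 3. Wells 213 and 214 of plate 4 are neighbours.

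A std MO well held a related but different set. Plate 5 well 28 had 2.5% of its transcripts on the slow list, with 386 transcripts of myl13 and 288 of myl10 but 0 of pvalb4. It was alone in myhb, a myosin heavy chain gene, with 286 transcripts, and in myl4, a light chain gene on the cardiac list, with 96.1. Those genes were at 0 to 2 transcripts in the other 17 wells of the heat map. myl13 averaged 1664 CPM in the wells between 5 and 20% and 5.09 in the wells at 20% and over.

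Plate 1 well 232 (irf8 MO) stood out by MYOG. MYOG, the transcription factor of muscle differentiation, gave 45.2 transcripts there and at most 8.01 in any other of the 18 wells. tcap, which caps titin at the Z disc, gave 272, FLNC, an actin crosslinker of the Z disc, 116, UNC45B, the myosin chaperone, 66.5, and DES, the muscle intermediate filament, 80.8. In number, deeper wells gave more transcripts of tcap and UNC45B (361 and 146 in plate 4 well 231) and of DES (131 in plate 3 well 321). Those wells held 276291 and 164253 transcripts in all, against 21176 in plate 1 well 232. As shares of the well, these 3 genes were thus higher in plate 1 well 232 than in the wells set beside it. The fast genes were uneven, with 272 transcripts of TNNC2, 153 of pvalb2 and 4 of pvalb1, so that pvalb2 exceeded pvalb1 by 38.2 times. A ratio of 31.7 in plate 2 well 87 (std MO) was the nearest, and both rest on 2 to 4 transcripts of pvalb1. In the other 16 wells the ratio was 1.3 to 4.70.

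Some wells with at least 5% muscle RNA held genes of another cell type as well. Plate 5 well 69 (std MO), at 11.2% muscle RNA, held 91.0 transcripts of cdh5, 126 of plvapb and 56.4 of pecam1a, genes of blood vessel lining, and these stood at 0 or 1 in the other 17 wells. Plate 3 well 297 (irf8 MO), at 5.34%, held 79.8 transcripts of OTOF and 63.5 of MYO6, genes used in sensory hair cells, and 143 of myhz1.3. Its muscle share was ordinary for its plate, where the median of selected irf8 MO wells was 5.66%. Plate 4 well 333 (irf8 MO), at 40.9%, held 7439 transcripts of krt4, an epidermal keratin. Plate 4 well 332 (irf8 MO), the next well, had 17.4% muscle RNA, against a median of 1.83% in the plate's other kept irf8 MO wells. The highest list of another cell type in well 332 was epidermis, with 309 transcripts of krt4. The neural genes DLL1 and neurog1 were lower there, with 13.0 and 11 transcripts. Plate 1 well 169 (std MO), beside well 170, had 3.09%, and the median of the other kept std MO wells of plate 1 was 0.334%. The other kept neighbours of deep fibre-like wells were set against the same kind of median, of their own plate and morpholino. Plate 4 wells 230 and 334 (1.44% and 1.75%), plate 3 well 322 (4.08%, median 5.06%) and plate 2 well 293 (0.318%, median 0.476%) lay below it. Plate 4 well 232 (2.66%) and plate 1 well 171 (0.518%) lay above it. Spread between neighbouring wells and cells sorted together were not tested, and no doublet caller was run.

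Over all selected wells the muscle genes kept much the same order. Of the 116 muscle genes, ranks in the pooled muscle RNA were correlated with those of globin-rich wells by Spearman rho 0.854 in the wells at 20% and over, 0.881 at 5 to 20%, 0.922 at 1 to 5% and 0.842 under 1%. The value for near-empty wells was 0.921. Single genes departed from it. tpma made up 8.02% of muscle RNA in the wells at 20% and over and 14.0% in globin-rich wells, and pvalb2 17.4% and 9.03%. TMOD4, which caps thin filaments, made up 0.234% and 8.02%. ALDOA (ENSDARG00000011665) made up 0.115% of muscle RNA in the wells at 20% and over and 6.15% in selected wells under 1%. It made up 8.67% in other globin-poor wells, and FABP3 made up 0.025%, 6.66% and 6.16% in these 3 classes. The muscle share of the wells under 1% thus drew in part on genes scarce in the wells at 20% and over.

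The level of a gene is given here as mean CPM over wells. ENSDARG00000037840, which has no symbol in the name table, had 8937 CPM in selected wells and 1476 in other wells. MYL1 (ENSDARG00000017441), the fast essential light chain, had 4836 and 1154. pvalb2 had 4818 and 826, tpma 4674 and 1307, atp2a1 3742 and 532, and ckma 2124 and 345. ACTA1 (ENSDARG00000055618) had 1234 and 132, TNNI2 (ENSDARG00000029069), the fast inhibitory troponin, 1134 and 137, and TTN (ENSDARG00000028213), the elastic titin, 1039 and 109. Each was higher in selected wells on 5 of 5 plates, as the rule would give. The means drew unevenly on the wells: ACTA1 averaged 18622 CPM in the wells at 20% and over and 89.3 in the wells under 1%.

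Genes that attach, excite and regulate the fibre were scarcer. CHRNA1, a subunit of the muscle acetylcholine receptor, was detected in 10.2% of selected wells and 0.752% of globin-rich wells. cav3, the caveolin of the muscle membrane, was detected in 14.8% and 2.44%, and rbfox1l, a muscle splicing factor, in 19.4% and 5.45%. DAG1, dystroglycan, was found more often, in 48.1% and 7.71%.

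The genes that moved most like the summed rule genes across wells, among 4308 detected in at least 25% of them, were ENSDARG00000037840 (Spearman rho 0.934), ckmb (0.893), MYL1 (ENSDARG00000017441, 0.876), tpma (0.839) and ckma (0.830), each over 216 wells. These wells share plates, and the values are descriptions. Symbols such as MYL1, MYL11, ACTA1, TNNI2, TNNT3 and TTN name several IDs, and their paralogs are uncertain.

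Genes of other cell types led in some selected wells, often over a low muscle share. Another list exceeded the muscle lists in 66 of 216, and the highest such list was most often epidermis (22 wells), cartilage and mesenchyme (14), erythroid (11) or HSPC (9). Of the 66, 50 had under 1% muscle RNA, and the HSPC list reached 1% in only 1 selected well. In 16 wells a list of another cell type was at least 5% of transcripts. Epidermal genes reached 30.3% in plate 2 well 225, which gave 28.1% of all krt4 transcripts of the selected wells. The neural and endocrine list reached 15.9% in plate 1 well 72, which gave 99.1% of all transcripts of ins, the insulin gene. Lens genes reached 17.4% in plate 2 well 284, macrophage and neutrophil genes 11.3% in plate 4 well 248, led by lyz, and cartilage genes 10.8% at most. In the wells under 1% muscle RNA, the genes highest against other wells were COL10A1, pvalb5 and ins, and COL10A1 and ins each came almost wholly (99.6% and 99.5%) from a single well. Their part in the results below was not tested.

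**Figure D4:**
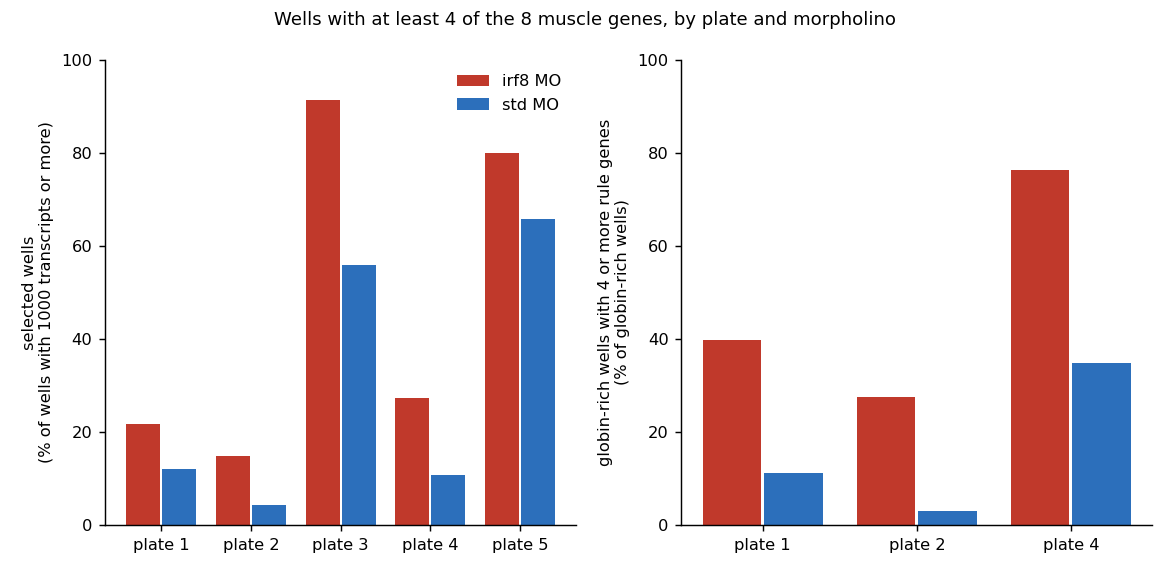
Left, percent of wells with at least 1000 transcripts that were selected, by plate, irf8 MO (red) left of std MO (blue). Right, percent of globin-rich wells with at least 4 rule genes on the 3 plates with globin-rich wells in both groups to compare, where irf8 MO is again above std MO.

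The selected wells were compared between morpholinos, the design's contrast. Their share of kept wells in irf8 MO embryos was 21.6%, 14.8%, 91.3%, 27.3% and 80.0% on plates 1 to 5. In std MO embryos it was 11.9%, 4.27%, 55.9%, 10.8% and 65.7%. On average 47.0 ± 35.8% of irf8 MO wells and 29.7 ± 28.7% of std MO wells were selected (SD, n = 5 each), a difference of 17.3 percentage points, and every plate was higher in irf8 MO, 5 of 5. The exact sign-flip test over plates (two-sided) gave p = 0.0625, which is the lowest value 5 plates can reach, and 0.188 after adjustment over 3 tests. As a share of all wells of a morpholino on the plate the difference was 5.58 points, higher in irf8 MO on 4 of 5 plates (exact sign-flip p = 0.25), and with at least 3 of the 8 genes it was 4.96 points (5 of 5, exact p = 0.0625). The share was highest in either group on plates 3 and 5, which had 46 irf8 MO and 34 std MO kept wells, and 10 and 35. Globin-rich wells cannot be selected, and plate 3 had 0 in either group and plate 5 had 0 and 2. On plates 1, 2 and 4 each group had 65 to 102 of them. Among kept wells with globin under 20%, the mean shares were 76.2% and 39.8%, a difference of 36.4 points (5 of 5, exact sign-flip p = 0.0625). Of all kept wells on plate 5, 8 of 10 irf8 MO wells and 23 of 35 std MO wells were selected.

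Several measures moved with this share. By muscle share, 38 irf8 MO and 36 std MO wells were under 1%, 60 and 34 at 1 to 5%, 33 and 7 at 5 to 20%, and 6 and 2 at 20% and over. With every well thinned to 1000 UMIs, which left out no kept well of the 466 irf8 MO and 467 std MO, 49 irf8 MO and 11 std MO wells passed. The mean shares were then 17.1% and 5.46%, higher in irf8 MO on 4 of 5 plates (exact sign-flip p = 0.4375). Among globin-rich wells, at least 4 of the 8 genes were found in 39.8%, 27.5% and 76.2% of irf8 MO wells on plates 1, 2 and 4. With std MO these shares were 11.1%, 3.08% and 34.8%. The median kept well was also deeper with irf8 MO on these plates, as given below, and the part of depth was not tested. In wells with under 300 transcripts, muscle RNA made up 3.17%, 3.31%, 10.2%, 10.5% and 12.8% of pooled transcripts with irf8 MO, against 1.90%, 2.01%, 7.02%, 9.05% and 10.0% with std MO. In these near-empty wells muscle RNA was thus higher with irf8 MO on 5 of 5 plates. In the pooled selected wells it was higher with irf8 MO on plates 2, 3 and 4. It was lower there on plate 1 (1.51% against 6.32%) and plate 5 (2.08% against 7.77%). The part of the muscle RNA of near-empty wells in the difference of shares was not tested. Counting only wells with at least 5% muscle RNA, the difference was 10.2 points, higher on 4 of 5 plates (exact sign-flip p = 0.1875), and with at least 20% it was 2.59 points (exact p = 0.125).

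For depth in the selected wells, no difference larger than the spread between plates was found. Median transcripts per selected well were 12634, 21068, 4209, 19572 and 5971 with irf8 MO and 16347, 14327, 7380, 17566 and 6084 with std MO, a mean log2 difference of -0.10 (two-sided exact sign-flip p = 0.6875). Median detected genes were 3154, 3887, 1151.5, 3787 and 1931 with irf8 MO and 3609.5, 3245, 1876, 3627 and 1785 with std MO, a mean log2 difference of -0.09 (exact p = 0.75). Without plate 3 both differences changed sign, to 0.08 and 0.06. These wells had already passed a rule that depends on depth. Over all kept wells, the base of the share, median transcripts were 6456, 6555, 3764, 8407 and 4737 with irf8 MO. With std MO they were 4573, 4617, 5387.5, 4874 and 6000. Kept irf8 MO wells were thus deeper on plates 1, 2 and 4 and shallower on plates 3 and 5, and this was not tested.

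IRF8 (ENSDARG00000056407), the gene the morpholino targets, gave 11 transcripts in 6 of 137 selected irf8 MO wells and 4 transcripts in 3 of 79 std MO wells. A morpholino blocks the RNA's use and need not lower its amount, and these counts are too low to check a label.

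**Figure D5:**
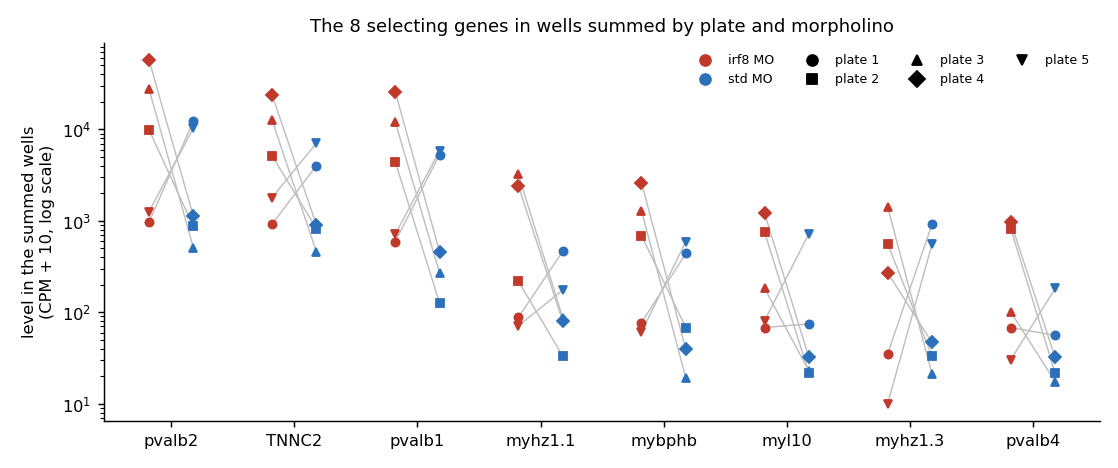
CPM plus 10 (log axis) of the 8 rule genes in the summed selected wells, irf8 MO (red) left of std MO (blue), with a symbol per plate and a line joining the sums of a plate. For pvalb2, irf8 MO was above std MO on plates 2, 3 and 4 and below it on plates 1 and 5.

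For gene levels, transcripts of the selected wells were summed per plate and morpholino and tested in edgeR (quasi-likelihood, plate as block). No gene was called at an adjusted p of 0.05: 0 of 8286 genes (0.0%), with 291 at an unadjusted p under 0.05. limma on the mean of per-well CPM also called 0 (438 at an unadjusted p under 0.05), and DESeq2 called 1 (389). With no filter on low counts edgeR called 99 genes, 68 higher and 31 lower in irf8 MO. Of the 8 rule genes, 7 were among the higher ones. For edgeR the absence of calls thus depends on that filter. DESeq2 tested as many genes, 21866, and its count was the 1 given above. A stricter filter in edgeR, which left 640 genes, also gave 0 calls. Why the methods differ was not tested. In the main edgeR fit none of the 8 rule genes was called. Their detection chose the wells, 137 of 466 kept wells with irf8 MO and 79 of 467 with std MO. Their fold changes thus depend on the selection and are given as a description. All 8 had positive log2 fold changes, with a median of 2.54 beside a median of 0.04 over all genes tested, and with standard errors of 1.33 to 2.64. This median was 1.43 without plate 2, 0.70 without plate 3 and 0.73 without plate 4 (7 of 8 positive in each), 3.53 without plate 1 and 3.71 without plate 5. It was 1.25 without the deepest well of each sum, 1.19 without the wells at 20% and over, and 1.03 in limma on per-well CPM (7 of 8).

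The direction differed between plates. pvalb2 had 959, 9861, 27530, 57529 and 1250 CPM in the irf8 MO sums of plates 1 to 5, and 12323, 861, 499, 1114 and 10282 CPM in the std MO sums. irf8 MO was higher on plates 2, 3 and 4, where the deep irf8 MO fibre-like wells lay, and std MO was higher on plates 1 and 5, which held the deep std MO wells. Its log2 fold change was 2.53 (SE 2.30, edgeR adjusted p = 0.999). pvalb1 stood at 3.20 (SE 2.42) and TNNC2 at 1.91 (SE 1.49), with the same split of plates. pvalb4 had 58.0, 808, 90.8, 951 and 20.3 CPM with irf8 MO, against 45.9, 11.6, 7.37, 22.1 and 172 with std MO, higher in irf8 MO on 4 of 5 plates, with a log2 fold change of 2.60 (SE 1.33, edgeR adjusted p = 0.999). The 3 wells named above for their slow-fibre genes lie in the irf8 MO sums of plates 2 and 4.

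Over the 5 muscle lists, 92 genes were tested, 0 were called, 88 were positive and 4 negative, with a median log2 fold change of 1.86 beside 0.04 over all genes. Without the 8 wells at 20% and over, chosen after seeing the data, the median was 0.99. Without plate 3 it was 0.66, without plate 4 0.67 and without plate 5 2.98. By role, calcium handling had 21 of 21 tested genes positive (median 1.81), thick filament 11 of 11 (1.97), thin filament 15 of 16 (1.76), energy supply 17 of 20 (1.71), Z disc and M band 24 of 24 (1.81) and the slow list 4 of 5 (2.07), none called. Myogenic regulators had 8 of 12 positive (median 0.20). Among lists of other cell types, lens had 7 of 7 positive (1.51), erythroid 9 of 11 (0.88), cartilage and mesenchyme 10 of 15 (0.58) and HSPC 4 of 7 (0.10). Others were mostly negative: leukocyte had 0 of 4 positive (-0.75), macrophage and neutrophil 0 of 3 (-0.42), neural and endocrine 2 of 8 (-0.36) and epidermis 2 of 8 (-0.33). None of these genes was called, and their part in the muscle values was not tested. Genes of one well move together, so these counts do not stand for independent genes. The 5 muscle lists also hold the 8 rule genes, which chose the wells.

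The genes with the smallest p in each direction were mostly no muscle genes. hbbe3, an embryonic globin gene of red cells, had 4333, 4474, 63.5, 7718 and 10.2 CPM with irf8 MO, against 626, 733, 0, 1195 and 4.53 with std MO, a log2 fold change of 2.95 (SE 0.56, edgeR adjusted p = 0.999). The rule caps globin but does not set it to 0. SLIT3, a secreted guidance protein, averaged 51.2 ± 19.4 CPM with irf8 MO and 10.5 ± 4.02 with std MO (SD, n = 5 each). CEBPD, a leucine zipper transcription factor, averaged 275 ± 147 and 86.5 ± 58.5, and CRTAP, which takes part in modifying collagen, 86.7 ± 37.3 and 22.5 ± 9.03. These 4 were higher with irf8 MO on 5 of 5 plates, and edgeR with the filter called none of them, while DESeq2 called hbbe3 (log2 fold change 2.88, adjusted p = 0.00014), as did edgeR with no filter. HHATL, expressed in muscle, had 10.9, 55.2, 20.4, 34.0 and 0 CPM with irf8 MO and 0, 0, 1.84, 0 and 0 with std MO, and 47.7% of its transcripts lay in plate 2 well 308.

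In the other direction, gcga, a glucagon gene of the pancreas, had 14.5, 1.41, 0, 0 and 0 CPM with irf8 MO against 4255, 291, 0, 0 and 0 with std MO, a log2 fold change of -7.63 (SE 0.63, edgeR adjusted p = 0.206). Of its transcripts, 97.5% lay in plate 1 well 72 (std MO), the well rich in ins. eppk1, a keratin linker, averaged 14.6 ± 8.68 CPM with irf8 MO and 64.0 ± 41.5 with std MO (SD, n = 5 each), and si:dkey-238c7.12 230 ± 172 and 932 ± 814. si:ch211-153b23.4 averaged 0.706 ± 1.03 and 28.3 ± 32.9, with 49.1% of its transcripts in plate 1 well 156. edgeR with the filter called none of these genes. With other settings it called gcga, si:dkey-238c7.12 and si:ch211-153b23.4.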

How the data were processed

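Plates of 384 wells (n = 5) were analysed. The authors deposited estimated counts per gene and well: UMIs corrected for collisions in a pool of 4096, not scaled for depth. Inverting the correction gave whole UMIs for 100% of values (tolerance 1e-06). BWA, Seurat and GRCz11 are named in the submitters' processing notes, and other steps are not given in the sources used here. The 384 well names recur on every plate. Spike-ins took 6.31% of transcripts in kept wells and were left out. Of 23628 genes, 18186 had a symbol.

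The wells, gene lists and tests were chosen with earlier results of these data known. Named genes are the rule genes, up to 6 per list, the 20 highest against other wells, IRF8 and the 5 with the smallest p each way, of which 1 gene is not reported here. Other genes named for single wells were chosen after their values were seen. Sums per plate and morpholino were rounded and tested in edgeR 4.0.16 (filterByExpr, TMM, plate block, Benjamini-Hochberg at 0.05; R 4.3.3), with DESeq2 1.42.0 and limma 3.58.1 as alternatives. The script was tested on simulated data. Shares and depth used exact sign-flip tests over plates (numpy 2.4.6, scipy 1.17.1). The pairing comes from the labels, which place both morpholinos on each plate. Same-plate deviations correlated by -0.07, 0.01, 0.07, 0.03 and -0.01. Alternatives covered the rule, filters, scaling, thinning and leaving out plates or wells.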

Additional observations from a re-analysis of the deposited data

Results flagged for a closer look

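On plate 3 the share of kept wells that were selected was 35.4 percentage points higher with irf8 MO than with std MO, while the other 4 plates lay between 9.68 and 16.5 points. Plate 3 had 0 globin-rich kept wells, which cannot be selected, and plates 1, 2 and 4 had 65 to 102 per morpholino. Of the globin-poor kept wells, 27 of 42, 21 of 40, 42 of 46, 39 of 42 and 8 of 10 were selected with irf8 MO on plates 1 to 5. With std MO these were 18 of 61, 5 of 52, 19 of 34, 14 of 41 and 23 of 33. Of the groups of 5 plates, 4 of 28 had a plate flagged as far apart, and chance flags about 1 in 20. HHATL had 1.84 CPM in the std MO sum of plate 3, from a count of 1 in 1 well, and 0 on the other plates. With the others at 0 any count would be flagged, so the chance rate does not apply to it. gcga had 14.5 CPM in the irf8 MO sum of plate 1, with the others at 0 to 1.41, and 4255 CPM in the std MO sum of plate 1, with the others at 0 to 291. Below the depth limit, 56 of 987 wells with under 1000 transcripts also had globin under 20% and at least 4 of the 8 muscle genes.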

How the results depend on the processing

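The share of selected wells kept its direction under 16 alternatives, from 2.59 to 36.4 percentage points, and from 12.7 to 19.2 with a plate left out. The median transcripts and genes per well changed sign without plate 3 (0.0784 and 0.0604 on the log2 scale, with lowest values of -0.26 and -0.18 over plates left out), and the genes also after thinning to 1000 UMIs (0.0082). The cause was not tested. In edgeR 0 genes were called with the replicate block, 0 with no replicate block (286 at an unadjusted p under 0.05) and 0 with any plate left out (157 to 387). The count was 1 with at least 3 of 8 genes (si:dkey-238c7.12), 1 without TMM (gcga, median log2 fold change over all genes -0.08), 1 without wells at 20% and over (gcga, chosen after seeing the data) and 1 in DESeq2 (hbbe3, log2 fold change 2.88, adjusted p = 0.00014). With no filter on low counts it was 99 (68 higher, 31 lower), pvalb2 (2.66) among them, and 82 of the 99 were also tested with the filter. With rule genes counted from 2 UMIs, 7 of the 8 were positive, with a median of 1.21. The rule of at least 6 of 8 genes could not be fitted in edgeR, since only plate 1 qualified. The sign-flip test over 5 plates cannot go below 0.0625. Depth limits which wells pass the rule, since few molecules decide many of them.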

Other observations

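Transcripts of 3 heart genes lay mostly in a single selected well. Plate 2 well 311 (irf8 MO) gave 92.9% of the transcripts of cmlc1, a cardiac myosin light chain gene, over all selected wells, 96.5% of those of nppa, the atrial hormone gene, and 93.9% of those of MYL7, while its muscle lists made up 0.916% of 42844 transcripts. The highest share of the cardiac list as a whole, 0.512%, was that of plate 5 well 28 (std MO), with its myl4. RPE65, a gene of the retinal pigment epithelium, had 98.9% of its transcripts in a single well among those at 1 to 5% muscle RNA.

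Heat shock and immediate early genes were abundant in the selected wells as in the others. The list made up a median of 1.27% of transcripts in selected wells, 0.761% in globin-rich wells and 1.2% in other globin-poor wells. hsp70.3 averaged 4221 CPM in selected wells and 4290 in other kept wells. Within the selected wells it averaged 985 CPM at 20% muscle RNA and over and 4789 under 1%, and hmga1a, a chromatin gene on the HSPC list, averaged 237 and 2741.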
